A study of Mus musculus with 6 samples.

Results

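Transcripts of 9 transcription factor genes that direct granulocyte and macrophage fate were followed in a mouse bone marrow line with and without a guide RNA against Irf2. The members were chosen by name, with the interferon regulatory factor genes left out, and were found by Entrez gene ID. They are Spi1, Cebpa, Cebpb, Cebpd, Cebpe, Gfi1, Klf4, Runx1 and Maf, 9 of 36528 gene IDs in the tables. HOXB-8 cells are bone marrow progenitors of the myeloid line held in division by the homeobox protein they are named for, and another name the labels give them is iMACs. The 3 libraries labelled Parental are Irf2 wild type and carried a control guide RNA, Luc. The 3 libraries labelled IRF2_KO carried a guide RNA to Irf2, the gene of a factor that binds interferon response elements. No treatment, age or strain is given for either group, and the labels do not say whether a line is 1 clone or a pool of edited cells. Separate cultures are not stated for the 3 libraries within a group. The p-values therefore reflect library-to-library spread, which may be technical.

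PU.1, the protein of Spi1, is an ETS factor that opens myeloid enhancers and is needed for both macrophages and granulocytes. C/EBP-alpha takes progenitors into the granulocyte and monocyte line, C/EBP-epsilon drives the late granule genes of neutrophils, and C/EBP-beta and C/EBP-delta are inducible relatives that serve emergency granulopoiesis and macrophage activation. Gfi1 is a zinc finger repressor that favours neutrophils over monocytes. RUNX1 binds with CBF-beta to many myeloid promoters, while KLF4 and c-MAF belong to monocytes and mature macrophages.

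Total counts ran from 33422590 to 39925038 for Parental and from 29070160 to 34051219 for IRF2_KO. Levels are given as CPM, the counts scaled by library total and TMM factor, and 3 counts were worth 0.0751 to 0.103 CPM before that factor. All 8 myeloid identity markers on the list fixed for this purpose were measured well above that floor, from 19.7 CPM for Csf3r to 918 CPM for Mpo in Parental. Of these 8, 5 were called higher and 2 lower in IRF2_KO, beside 23.6% each way over all genes tested. Itgam, Itgb2, Csf3r, Mpo, Lyz2 and Fcgr3 also belong to the promyelocyte and receptor genes counted below, so those counts are not separate. Of the markers of other cells, Cd3e, Cd8a and Cd4 of T cells, Pax5 and Ms4a1 of B cells, Hba-a1 and Hba-a2 of red cells and Cpa3 of mast cells had no read in any library. Other markers did have reads. Ms4a2 and Mcpt8 of the mast cell and basophil list were at 9.93 and 3.57 CPM in Parental. In IRF2_KO they were at 8.98 and 3.68 CPM. Siglecf of the eosinophil list was at 3.37 CPM in Parental and 3.43 CPM in IRF2_KO. None of these passed the test. The summed erythroid markers were 0.606 to 0.861 CPM in Parental against 0.535 to 0.802 CPM in IRF2_KO. Among the lists of markers of other cells, 2 held called genes. Ebf1, a B cell factor, fell by 3.33 on the log2 scale, and the summed B cell list went from 3.79 to 3.98 CPM down to 0.806 to 1.04 CPM. Of the platelet receptor genes, Gp1bb rose by 1.34 and Gp9 fell by 1.09, and the summed megakaryocyte list went from 8.81 to 9.65 CPM up to 19.6 to 22.8 CPM. The part of these lists in the results on the members was not tested. Irf2 itself did not pass the test (log2 fold change -0.08, SE 0.05, edgeR adjusted p = 0.209), and a count per gene does not show whether the coding sequence was cut.

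Of the 9 members, 7 were abundant enough to test, 4 of these rose in IRF2_KO, 1 fell and 2 did not pass. Cebpd, Runx1 and Cebpb rose 1.35-, 1.30- and 1.30-fold, Gfi1 rose 1.07-fold, and Cebpa fell 1.44-fold. The call of Gfi1 was lost in 7 of 14 alternative fits. Calls are from edgeR's quasi-likelihood test with Benjamini-Hochberg adjustment over 13353 genes at a threshold of 0.05. Across all genes tested 47.2% were called, 23.6% higher and 23.6% lower, and the 5 calls among 7 tested members stand beside that background. The groups did not overlap in 5 of the 7 tested members, against 54.0% of all genes tested. None of the 7 tested members reached 1.5-fold, which 12.3% of genes tested did together with the call. In bulk RNA, fewer cells of a type and less RNA per cell cannot be told apart.

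**Figure D1:**
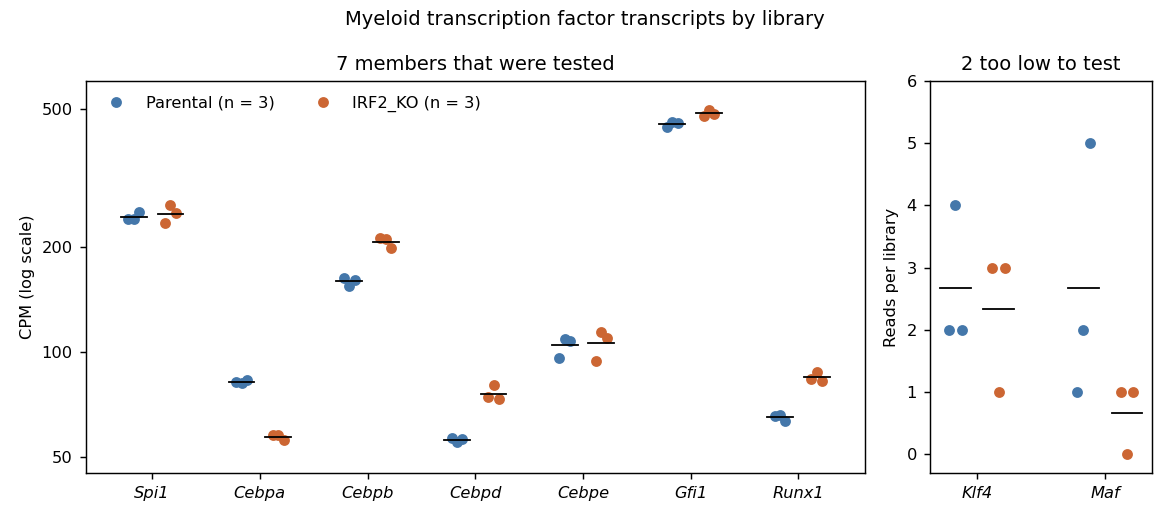
Levels of the 9 members in each library. Left, CPM on a log scale for the 7 tested members. Right, reads per library for Klf4 and Maf. Points are libraries (3 Parental, 3 IRF2_KO) and bars are group means. The 3 IRF2_KO libraries lie below the 3 Parental libraries for Cebpa and above them for Cebpb, Cebpd, Gfi1 and Runx1, and the groups overlap for Spi1, Cebpe, Klf4 and Maf.

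Spi1 (Entrez gene 20375, GRCm38 chromosome 2, 91082374 to 91115759, plus strand) is the ETS factor at the head of the set. The 3 Parental libraries gave 240.5, 241.1 and 251.7 CPM, and the 3 IRF2_KO libraries 234.7, 263.8 and 251.02 CPM. The groups overlapped, and the lowest and the highest of the 6 values were both IRF2_KO libraries. The log2 fold change was 0.03 (SE 0.05, edgeR adjusted p = 0.609), with a 95% interval of the fold from 0.955 to 1.09. Of all genes tested, 90.2% had a larger difference.

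Cebpa (Entrez gene 12606, chromosome 7, 35119293 to 35121928, plus strand) encodes C/EBP-alpha and was the member that fell. Its values were 81.95, 81.4 and 83.1 CPM in Parental and 57.8, 57.7 and 55.8 CPM in IRF2_KO. The 2 groups were well apart and each was tight, with SDs of 0.886 and 1.15 CPM (n = 3 each). Cebpa fell by 0.53 on the log2 scale (SE 0.04, edgeR adjusted p = 3.28e-08), or 1.44-fold from 82.2 to 57.1 CPM. Its change was larger than that of most genes, since 15.7% of genes tested had a larger one in either direction.

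Cebpb (Entrez gene 12608, chromosome 2, 167688915 to 167690432, plus strand) encodes C/EBP-beta, an inducible relative of C/EBP-alpha. It measured 163.1, 154.4 and 161.03 CPM in Parental against 212.3, 211.2 and 198.5 CPM in IRF2_KO. Every IRF2_KO library was above every Parental library. The rise was 1.30-fold, with a log2 fold change of 0.38 (SE 0.04, edgeR adjusted p = 1.50e-06). Cebpd (Entrez gene 12609, chromosome 16, 15887286 to 15889545, plus strand), whose product C/EBP-delta is induced in inflammation, measured 56.8, 55.3 and 56.3 CPM against 74.3, 80.2 and 73.6 CPM. Here too the groups did not overlap, and the highest value came from IRF2_KO 2. Cebpd had the largest rise among the members, 1.35-fold (log2 fold change 0.44, SE 0.05, edgeR adjusted p = 8.88e-07).

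Cebpe (Entrez gene 110794, chromosome 14, 54710363 to 54712174, minus strand) encodes C/EBP-epsilon, the factor of late granule genes. It measured 96.3, 109.4 and 107.7 CPM in Parental and 94.5, 113.9 and 109.6 CPM in IRF2_KO. In each group 1 library, numbered 1, was lower than the other 2, which makes Cebpe the most variable of the tested members (coefficient of variation 6.84% and 9.60%). Its log2 fold change was 0.02 (SE 0.06, edgeR adjusted p = 0.807), with a 95% interval of the fold from 0.925 to 1.11. The numbers were given in the order of the records and pair nothing. In CPM the libraries numbered 1 were also the lowest of their groups for Mpo and Prtn3, but the highest for Cebpb.

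Gfi1 (Entrez gene 14581, chromosome 5, 107716655 to 107725805, minus strand), the repressor that favours neutrophils, measured 443.1, 457.8 and 455.7 CPM in Parental and 475.4, 497.03 and 481.1 CPM in IRF2_KO. The groups did not overlap, but the distance was small. The log2 fold change of 0.10 (SE 0.04) lay just inside the threshold (edgeR adjusted p = 0.0458). The call was lost without Parental 1 (0.08), Parental 2 (0.11), Parental 3 (0.10), IRF2_KO 2 (0.08) or IRF2_KO 3 (0.10), with library size alone (0.07) and with no filter on low counts (0.09), while the adjusted p over all alternatives ran from 0.0148 to 0.1497.

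Runx1 (Entrez gene 12394, chromosome 16, 92601466 to 92826074, minus strand), the DNA-binding partner of CBF-beta, measured 65.6, 66.2 and 63.3 CPM in Parental and 83.8, 87.5 and 82.8 CPM in IRF2_KO. The IRF2_KO libraries were all higher. The rise was 1.30-fold (log2 fold change 0.38, SE 0.05, edgeR adjusted p = 2.35e-06), close in size to that of Cebpb.

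Klf4 (Entrez gene 16600, chromosome 4, 55527137 to 55532475, minus strand), a factor of monocyte differentiation, had 2, 4 and 2 reads in Parental and 3, 1 and 3 in IRF2_KO. The ratio of the summed reads, 8 against 7, was 1.08 for IRF2_KO over Parental, with a 95% exact binomial interval of 0.333 to 3.40. Maf (Entrez gene 17132, chromosome 8, 115703253 to 115706894, minus strand), the gene of c-MAF, had 1, 2 and 5 reads against 1, 0 and 1. Its ratio of 2 to 8 summed reads was 0.308, with an interval of 0.0319 to 1.54. Both genes were too low to test, most libraries held no more than 3 reads of either, and a difference between the groups was not detectable at this depth. Such intervals cover counting error only.

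Promoter sequence was available in the RefSeq table (GRCm38.p6) for 5 of the 9 members: Cebpa, Cebpb, Gfi1, Klf4 and Runx1. The 250 bases before the start of transcription are shown for the member that fell, Cebpa, and for 2 that rose, Cebpb and Runx1, the last with its distal and its proximal start. They are written 5′ to 3′ on the strand of the gene, and capitals mark matches to the 7 motifs searched on both strands.
Cebpa, chr7:35119043-35119292, plus strand: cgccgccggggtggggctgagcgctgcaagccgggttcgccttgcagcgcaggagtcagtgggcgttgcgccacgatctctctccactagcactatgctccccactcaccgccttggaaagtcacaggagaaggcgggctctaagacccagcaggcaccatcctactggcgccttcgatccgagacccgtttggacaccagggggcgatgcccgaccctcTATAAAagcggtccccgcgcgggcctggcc
Cebpb, chr2:167688665-167688914, plus strand: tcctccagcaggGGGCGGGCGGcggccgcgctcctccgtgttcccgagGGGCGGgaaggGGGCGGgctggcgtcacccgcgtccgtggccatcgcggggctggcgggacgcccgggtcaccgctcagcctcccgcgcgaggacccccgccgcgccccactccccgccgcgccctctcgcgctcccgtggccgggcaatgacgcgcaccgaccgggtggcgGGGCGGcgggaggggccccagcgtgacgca
Runx1 distal, chr16:92826075-92826324, minus strand: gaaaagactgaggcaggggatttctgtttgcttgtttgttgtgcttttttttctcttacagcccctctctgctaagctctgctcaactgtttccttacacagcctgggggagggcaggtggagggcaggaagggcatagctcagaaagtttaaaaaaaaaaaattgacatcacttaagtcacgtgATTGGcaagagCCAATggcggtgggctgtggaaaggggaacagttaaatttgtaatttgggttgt
Runx1 proximal, chr16:92697330-92697579, minus strand: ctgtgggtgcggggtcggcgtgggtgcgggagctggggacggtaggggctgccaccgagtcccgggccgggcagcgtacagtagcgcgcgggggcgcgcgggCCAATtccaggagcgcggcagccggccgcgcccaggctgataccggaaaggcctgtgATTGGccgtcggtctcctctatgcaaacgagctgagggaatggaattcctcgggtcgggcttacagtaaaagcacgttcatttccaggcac

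The motif of interferon regulatory factors (GAAA, any 2 bases, GAAA) and the composite ETS and IRF motif (GGAA, any 2 bases, GAAA) were not found in these windows, nor in those of Gfi1 and Klf4. Of 32851 windows of the same length in the table, 2.98% and 2.30% held them, and no match says only that these letters are not in the window. Cebpa held a TATA box (TATAAA, in 12.4% of all windows) 30 to 25 bases before its start. Cebpb held 5 GC boxes (GGGCGG, in 32.7%), of which 2 overlap each other. Each Runx1 window held 2 CCAAT boxes (CCAAT, in 33.8%), 1 on each strand. A C/EBP motif (TTGCNNAA, in 9.56%) was found in 1 of the 2 Gfi1 windows, 143 to 136 bases before the start, and the RUNX motif TGTGGT, in 14.05% of windows, in none of the members' windows. A match is a description of letters, not a bound site.

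**Figure D2:**
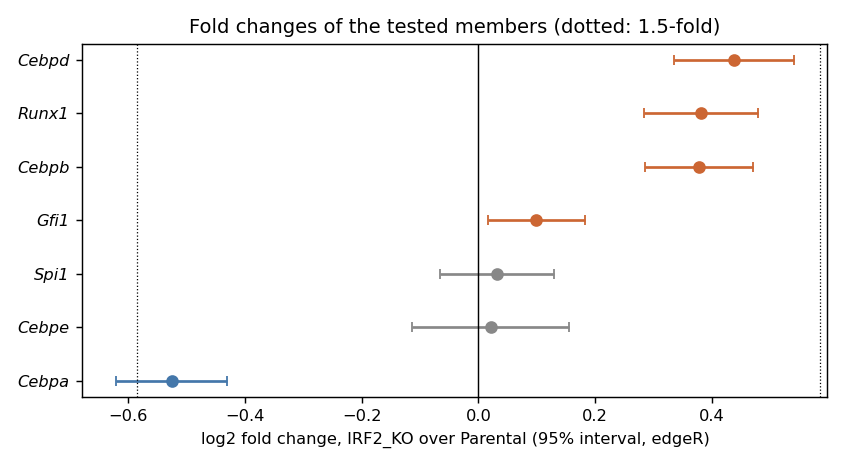
Log2 fold changes of the 7 tested members, IRF2_KO over Parental, with 95% intervals from edgeR. The zero line marks no change and dotted lines mark 1.5-fold. Cebpa lies at -0.53, Cebpd at 0.44, Runx1 and Cebpb at 0.38, and the intervals of Spi1 and Cebpe span zero.

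Levels were compared between genes with the authors' deposited size-factor-adjusted RPKM, which divides by gene length. In Parental Spi1 was highest at 165.7 ± 4.10 RPKM (SD, n = 3), followed by Gfi1 at 116.3 ± 1.80, Cebpb at 102.1 ± 3.05, Cebpe at 82.02 ± 5.44, Cebpa at 30.3 ± 0.318, Cebpd at 24.1 ± 0.361 and Runx1 at 8.46 ± 0.206 RPKM. All neighbours in this order were apart in every library. Klf4 and Maf followed at 0.0233 and 0.0186 RPKM, and these 2 overlapped. In IRF2_KO 2 pairs stood in the opposite order. Cebpd (32.9 ± 1.72 RPKM) was above Cebpa (21.2 ± 0.444 RPKM) with no overlap, and Cebpb (133.5 ± 4.97 RPKM) was above Gfi1 (125.3 ± 3.53 RPKM), although those values overlapped. Against all genes tested, the Parental RPKM of Spi1 was above that of 97.2% and that of Runx1 above 49.1%, so the tested members ran from very abundant to average.

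The balance of Cebpa and Spi1 was set out per library because PU.1 and C/EBP-alpha are known to pull progenitors toward different myeloid fates. The RPKM of Spi1 was 5.39, 5.44 and 5.57 times that of Cebpa in Parental and 7.47, 8.40 and 8.27 times in IRF2_KO. The groups did not overlap. On the log2 scale the ratio of Cebpa to Spi1 went from -2.45 ± 0.02 to -3.01 ± 0.09 (SD, n = 3), a difference of -0.56, with p = 0.1 in a two-sided exact permutation test, the smallest p that 3 against 3 libraries can give. A ratio within a library does not depend on how libraries are scaled. Because Spi1 differed little, this difference is nearly the fall of Cebpa.

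Within the C/EBP family the makeup of the summed RPKM differed between the groups. Cebpa took 12.1%, 11.8% and 11.9% of the sum over Cebpa, Cebpb, Cebpd, Cebpe and Cebpg in Parental against 7.61%, 7.21% and 7.32% in IRF2_KO. Cebpb took 41.6%, 39.02% and 40.1% against 48.5%, 45.8% and 45.3%. Cebpb was the largest share in all 6 libraries, and the groups overlapped neither for Cebpa nor for Cebpb. The share of Cebpb was higher by 6.27 percentage points in IRF2_KO (p = 0.1, two-sided exact permutation test, again the smallest possible). Cebpe took 32.3% ± 1.94 and 29.1% ± 2.29 (SD, n = 3), and its groups overlapped. The summed RPKM itself was 253.7 ± 2.70 in Parental and 287.1 ± 10.1 in IRF2_KO, and in each library Cebpb was 3.29 to 3.46 times Cebpa in Parental and 6.18 to 6.38 times in IRF2_KO.

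**Figure D3:**
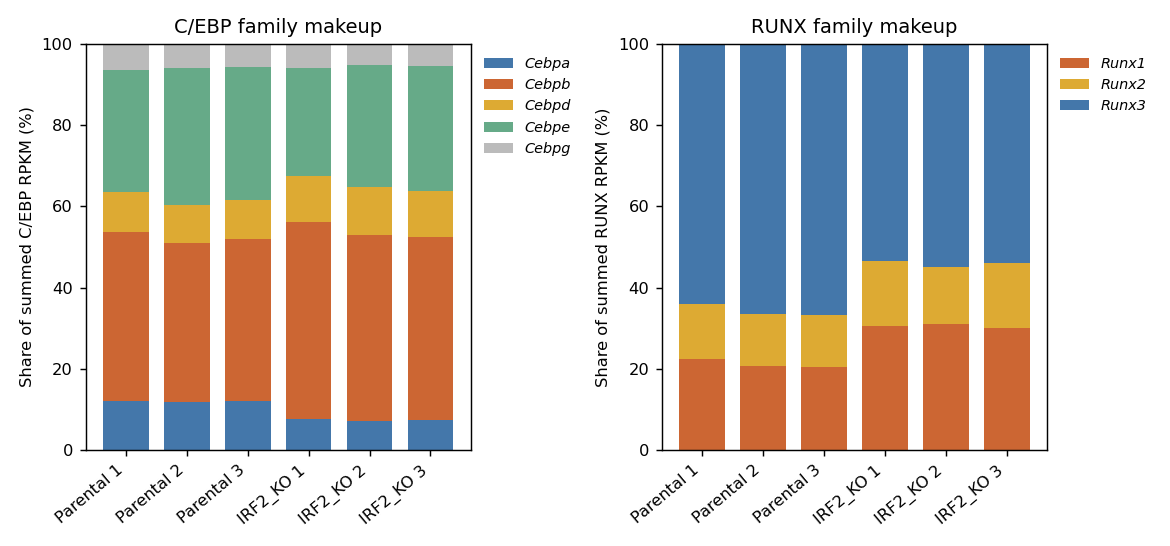
Makeup of the C/EBP family (left) and the RUNX family (right) in each library, as percent of the summed RPKM of the family. Each bar is 1 library. In IRF2_KO the Cebpa and Runx3 shares are smaller and the Cebpb, Cebpd and Runx1 shares larger than in every Parental library.

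Among the other C/EBP relatives and regulators, 3 of 10 tested genes fell and the other 7 did not pass. The counts of this list and of those below stand beside 23.6% of all genes tested that rose and 23.6% that fell. Trib1, a pseudokinase that directs C/EBP-alpha protein to degradation, fell from 3.52 ± 0.0803 to 2.27 ± 0.253 CPM (edgeR adjusted p = 0.0011). The kinase gene Cdk4 fell by 0.17 on the log2 scale and Cebpz by 0.19. Cebpg, which lies 62726 bases from Cebpa on chromosome 7 and encodes a relative without a classical activation domain, did not pass (log2 fold change 0.05, edgeR adjusted p = 0.448), nor did Ddit3, the stress-induced relative CHOP (0.08, adjusted p = 0.263). The median log2 fold change of the list was -0.01, as it was over all genes tested.

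The ETS relatives and partners of Spi1 went both ways, with 3 of 12 tested genes higher and 3 lower. Jun, whose product binds PU.1, rose from 4.29 ± 0.0774 to 7.87 ± 0.505 CPM (edgeR adjusted p = 1.10e-06), while Ets1, a factor better known from lymphocytes, fell from 8.71 ± 0.527 to 5.44 ± 0.220 CPM. Elf4 and Ets2 rose by 0.37 and 0.24 on the log2 scale. The closest relatives of Spi1 were near silent, Spib with 0 to 3 reads in any library and Spic with at most 1. The median log2 fold change of 0.10 stood beside -0.01 over all genes tested.

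In the list of the Gfi1 relative, its corepressors and the EGR factors that oppose it, 3 of 9 tested genes rose and 6 did not pass. Nab2, a corepressor that EGR factors induce and bind, rose from 21.1 ± 1.59 to 42.07 ± 1.29 CPM (edgeR adjusted p = 4.22e-10), and its relative Nab1 from 51.9 ± 2.86 to 66.7 ± 2.74 CPM. The third call, Egr1 (log2 fold change 0.27), was lost without Parental 1 (0.23), Parental 3 (0.21) or IRF2_KO 3 (0.20) and with log2 RPKM (0.26), and its adjusted p over all alternatives ran from 0.00334 to 0.1329. The corepressor genes Kdm1a, Rcor1, Hdac1, Hdac2 and Ehmt2 did not pass, with log2 fold changes from -0.10 to 0.09. Gfi1b, the erythroid relative, had 3, 4 and 4 reads in Parental and none in IRF2_KO, too few to test.

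The KLF family, to which the near-silent Klf4 belongs, rose in 8 of 11 tested genes and fell in 1. Klf2, a factor that restrains monocyte activation, measured 2.35, 2.49 and 3.11 CPM in Parental and 12.5, 12.1 and 11.9 CPM in IRF2_KO. The groups lay far apart (log2 fold change 2.19, SE 0.11, edgeR adjusted p = 1.62e-11). Klf6, which acts in macrophage activation, rose from 16.4 ± 1.71 to 38.1 ± 0.193 CPM. Klf5 rose from 1.83 ± 0.256 to 6.24 ± 0.141 CPM and Klf10 from 45.03 ± 0.987 to 67.6 ± 0.967 CPM. Klf16, named because it was the 1 gene that fell, did so by 0.30 on the log2 scale. The median log2 fold change of the tested KLF genes was 0.59, beside -0.01 over all genes.

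Within the RUNX family Runx1 rose, Runx2 did not pass (log2 fold change 0.08, edgeR adjusted p = 0.188), and Runx3, best known from T cells and dendritic cells, fell from 112.8 ± 6.99 to 83.6 ± 2.71 CPM (log2 fold change -0.43, edgeR adjusted p = 1.97e-06). Of the summed RUNX RPKM, Runx1 took 22.3%, 20.7% and 20.5% in Parental and 30.6%, 30.9% and 30.1% in IRF2_KO, while Runx3 went from 65.7% ± 1.55 to 54.1% ± 0.791 (SD, n = 3). Both shares were apart between the groups. Runx3 still took the largest share in each library. Among the relatives and cofactors together, 1 of 9 rose and 3 fell, against 0 and 5 with library size alone. Cbfa2t3, a corepressor gene of the ETO family, fell from 43.5 ± 1.48 to 22.3 ± 1.27 CPM (edgeR adjusted p = 3.25e-10). Prmt1, which methylates RUNX1, fell by 0.27 on the log2 scale, and Cbfb did not pass (0.07, adjusted p = 0.25). The call of Tle1, the gene that rose (0.16), was lost without Parental 2 (0.11), IRF2_KO 1 (0.14) or IRF2_KO 3 (0.17), with library size alone (0.13), with log2 RPKM (0.16) and with no filter (0.15), with adjusted p from 0.0256 to 0.1755 over all alternatives.

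The MAF, BACH and CNC family rose in 4 of 7 tested genes and fell in 2. The small MAF genes, which lack an activation domain and pair with BACH and CNC proteins, were divided. Mafg rose by 0.27 and Mafk fell by 0.26 on the log2 scale, and Maff, named after its values were seen, rose by 0.28 from a lower level of 16.1 ± 0.914 CPM in Parental. Bach1, a haem-sensing repressor, rose from 52.7 ± 1.51 to 74.6 ± 2.42 CPM (edgeR adjusted p = 1.35e-07), and Nfe2, a partner of small MAF proteins, from 184.8 ± 3.36 to 253.6 ± 9.50 CPM.

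Among other factors of myeloid fate, 17 of 27 tested genes rose and 3 fell, with a median log2 fold change of 0.32, beside -0.01 over all genes. Id2, an inhibitor of basic helix-loop-helix factors, rose from 16.7 ± 1.21 to 36.2 ± 0.889 CPM (edgeR adjusted p = 1.24e-10). Pparg, a nuclear receptor of alveolar macrophages, rose from 70.5 ± 1.98 to 114.3 ± 1.12 CPM. Lmo2 rose by 0.51 and Nfil3 by 0.58 on the log2 scale. The genes that fell, Stat5a, Tcf3 and Batf, were named after their values were seen (log2 fold changes -0.36, -0.18 and -0.22).

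**Figure D4:**
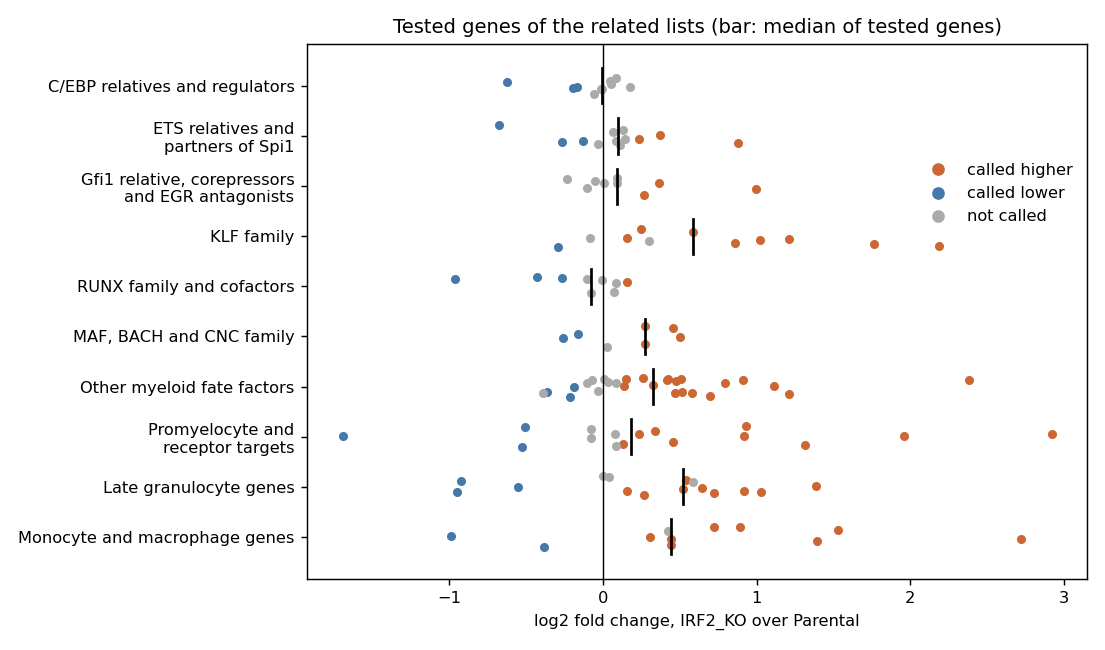
Log2 fold changes (IRF2_KO over Parental) of the tested genes in 10 lists related to the members. Each point is a gene, coloured by its call, and bars are list medians. The KLF median stands at 0.59 and the RUNX list at -0.08.

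Genes tied to the members or to monocytes and macrophages were read from 3 lists, chosen with earlier results of these data known. Over all genes tested 23.6% rose and 23.6% fell, with a median log2 fold change of -0.01. Of the promyelocyte and receptor genes that C/EBP-alpha and PU.1 activate, 9 of 16 rose and 3 fell, with a median log2 fold change of 0.18. With library size alone 8 rose and 5 fell. The genes that fell were Elane, Mpo and Csf3r, which encode neutrophil elastase, myeloperoxidase and the receptor of granulocyte colony-stimulating factor. Elane went from 2989 ± 98.9 to 924.1 ± 72.2 CPM (edgeR adjusted p = 2.20e-14). Mpo went from 918 ± 44.1 to 638.3 ± 43.8 CPM and Csf3r from 19.7 ± 0.706 to 13.9 ± 0.552 CPM, and both were named after their values were seen. So were Prtn3 and Ms4a3, which did not pass (log2 fold changes 0.08 and -0.08), and Ctsg, which rose by 0.13. Cybb, the catalytic subunit gene of the phagocyte oxidase, rose from 16.5 ± 0.660 to 124.9 ± 8.56 CPM (edgeR adjusted p = 5.48e-17). Csf1r, a PU.1 target and the macrophage growth factor receptor gene, rose by 1.96 on the log2 scale, and Lyz2, the lysozyme gene of myeloid cells, by 1.32, while Spi1 did not pass.

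Late granulocyte genes tied to C/EBP-epsilon rose in 9 of 15 tested cases and fell in 3, with a median of 0.52, while Cebpe itself did not pass. Ngp, a secondary granule protein gene, rose from 26.1 ± 1.64 to 49.5 ± 1.46 CPM and Fcnb from 39.3 ± 0.990 to 64.9 ± 2.66 CPM. Ltf, the lactoferrin gene, rose by 1.38 on the log2 scale. Camp, the cathelicidin gene, went the other way, from 24.3 ± 1.55 to 12.8 ± 0.529 CPM (edgeR adjusted p = 7.45e-09). The other two that fell, Cd177 (log2 fold change -0.95) and Retnlg (-0.55), were named after their values were seen. Of the monocyte and macrophage genes, 8 of 11 tested rose and 2 fell, with a median of 0.44. Gpnmb, a lysosomal glycoprotein gene of macrophages, rose from 185.3 ± 2.04 to 535.1 ± 6.24 CPM and Ccr2, the chemokine receptor of monocytes, from 16.3 ± 0.933 to 30.2 ± 3.55 CPM. Lpl, the lipoprotein lipase gene, rose by 2.72 on the log2 scale. Cd14, the monocyte co-receptor for lipopolysaccharide, went the other way, from 58.0 ± 1.18 to 29.3 ± 0.877 CPM (edgeR adjusted p = 3.31e-11). F13a1, which encodes a clotting factor subunit made by monocytes, fell by 0.38 on the log2 scale and was named after its values were seen. In that list 5 genes were too low to test. They were C1qa, C1qb, C1qc and Cd163, complement and scavenger receptor genes of mature tissue macrophages, and Cx3cr1, with 4 to 11 reads per library. Cd163 had 11, 2 and 10 reads in Parental and none in IRF2_KO. Some other macrophage genes of the list, named after their values were seen, rose. Adgre1, Cd68 and Mrc1 did so by 0.44, 0.72 and 0.44 on the log2 scale. Mertk, also named after its values were seen, did not pass (log2 fold change 0.42, edgeR adjusted p = 0.430). Whether the lists moved through the members was not tested.

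For the 3 members with the largest changes, the named genes with the most similar pattern over the 6 libraries were found. The measure was the Euclidean distance of log2 CPM centred on each gene's mean, so levels themselves could differ. Closest to Cebpa were Fads1, Serinc3 and Pus7l (distances 0.0483, 0.0502 and 0.0608), with log2 fold changes of -0.50 each. Close to Cebpd were Polr3gl and Adgre1 (0.0530 and 0.0607), with log2 fold changes of 0.43 and 0.44, and closest to Runx1 were Plpp6, Rasgef1b and Anxa5 (0.0335, 0.0642 and 0.0662). With 2 groups of 3 libraries this likeness rests mostly on the shared difference between groups.

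Some members share their place with genes on the opposite strand in GENCODE M21, and whether strand was used in counting is not given in the sources used here, so reads could be divided differently there. The span of Cebpb overlaps Tmem189 by 908 bases, and Tmem189 did not pass (log2 fold change -0.00, edgeR adjusted p = 0.966). Cebpd overlaps Spidr by 322 bases, and Spidr rose by 0.32 (adjusted p = 2.12e-05), a change in the same direction as that of Cebpd whose part in it was not tested. Cebpa, Gfi1, Runx1 and Maf overlap non-coding genes by 313, 649, 7292 and 1817 bases, whose values were not analysed here.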

How the data were processed

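RNA was sequenced from 6 samples in 2 groups of 3, grouped by the group label. Replicate numbers follow record order. The submitters' processing notes name GSNAP and the build GRCm38, and the aligner version, annotation and use of strand are not stated there. The counts deposited by the authors are, per the file headers, reads aligned uniquely to each gene model, and the deposited RPKM values are adjusted by a size factor. RPKM served to compare genes, to form ratios and in 1 alternative (pseudocount 0.1).

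Symbols and positions came from RefSeq (GRCm38.p6), in which all list genes were matched. In R 4.3.3, edgeR 4.0.16 kept 13353 genes by filterByExpr, scaled libraries by TMM (factors 0.987 to 1.02) and compared the groups by its quasi-likelihood test (robust, two-sided; Benjamini-Hochberg). The test was tested on simulated data. Each SE is the log2 fold change over the root of F. Libraries of a group differed by more than sampling noise (mean chi-square per gene 2.78 to 10.1), so none was treated as a repeat. Such spread does not show whether the libraries came from separate cultures.

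The members and lists were chosen with earlier results of these data known. Named are all members, in each related list up to 4 called genes of smallest adjusted p, and close paralogs, of which a few are not reported here. Other named genes were chosen after their values were seen, and list genes without a name enter the counts and medians only. Alternatives were DESeq2 1.42.0, limma 3.58.1 on voom weights or log2 RPKM, RLE or upper-quartile factors, no factors, other filters, stricter calls and each library left out.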

Additional observations from a re-analysis of the deposited data

How the results depend on the processing

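Cebpa, Cebpb, Cebpd and Runx1 kept their direction and call under all 14 alternatives run for them (log2 fold changes -0.56 to -0.51, 0.35 to 0.41, 0.40 to 0.46 and 0.35 to 0.40). Gfi1 lost its call in 7 of 14, as given beside its values. Spi1 (-0.01 to 0.08) and Cebpe (-0.04 to 0.11), which did not pass, changed sign in 1 and 4 alternatives and passed in none. With a minimum of 1.5-fold, the counts were 1136 genes higher and 511 lower, and 0 members in either direction, where edgeR at an unadjusted p under 0.05 and DESeq2 each found 5 members. Leaving out 1 library gave 2717 to 3158 genes higher, 2539 to 3099 lower, 3 to 4 members higher and 1 lower. The log2 ratio of Cebpa to Spi1 then differed by -0.61 to -0.52 and the Cebpb share by 5.25 to 6.96 percentage points. No paired analysis was possible because the labels carry no replicate numbers. Depth limits Klf4 and Maf, which had at most 5 reads in any library.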
